A study of Mus musculus with 8 samples.

Results

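The Egr transcription factors and their Nab corepressors were followed on all 8 arrays of a series in which the T cell receptor of mouse double positive thymocytes was engaged with antibodies. Every probe set was taken that the platform annotation assigned to Egr1, Egr2, Nab1 or Nab2 alone. This gave 4 genes of 8251 named on the arrays, with 5 probe sets of 12422 in all, and 4 of the 5 were bright enough to enter the test of 8281. Total RNA was hybridised in 4 groups of 2 arrays, named in the titles as control, overnight control, Valpha2 and Vbeta5, where the latter names are those of variable segments of the receptor's alpha and beta chain. Each group had an array under Data 1 and an array under Data 2, called array 1 and array 2 here. The sources used here do not give genotype, strain, age, antibody clone, dose or time. Nothing in the labels says that the 2 arrays of a group came from separate animals or cultures, so every p-value below reflects the spread between arrays alone, which may be technical.

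Egr proteins are zinc finger transcription factors that bind GC-rich DNA. Their genes are immediate early genes: receptor signalling through the Ras, MEK and ERK kinases activates serum response factor and its Elk partners at the promoters, and transcription follows within minutes. In thymocytes Egr1 and Egr2 are known as early reporters of T cell receptor signalling and take part in positive selection. Nab1 and Nab2 bind Egr proteins and repress the genes at which those are seated, and Nab2 is itself known as an Egr target, which makes a feedback loop.

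The promoter table from RefSeq (GRCm38.p6) matched 3 of the 4 symbols, Egr2, Nab1 and Nab2, with 7 start sites in all. The 250 bases before a start were searched on both strands for the CArG box, the site of serum response factor, and for the Egr site GCGTGGGCG, also in its looser form GCGNGGGCG, which contains the former. A CArG box lay before 4 of the 5 annotated Egr2 starts, in 2 different sequences, and in 1.47% of all 32851 windows of this length. The stretches are shown so that the Egr2 and Nab1 windows, which hold such letters, can be set beside that of Nab2, which holds none; matches are in capitals. The Egr2 windows are at chr10:67537316-67537565 and chr10:67537619-67537868 on the plus strand.
Egr2, upstream start: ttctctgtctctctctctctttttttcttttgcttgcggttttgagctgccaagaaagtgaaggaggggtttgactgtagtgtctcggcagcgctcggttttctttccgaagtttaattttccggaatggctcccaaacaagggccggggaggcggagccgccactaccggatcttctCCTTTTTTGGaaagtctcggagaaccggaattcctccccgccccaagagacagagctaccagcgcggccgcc
Egr2, downstream start: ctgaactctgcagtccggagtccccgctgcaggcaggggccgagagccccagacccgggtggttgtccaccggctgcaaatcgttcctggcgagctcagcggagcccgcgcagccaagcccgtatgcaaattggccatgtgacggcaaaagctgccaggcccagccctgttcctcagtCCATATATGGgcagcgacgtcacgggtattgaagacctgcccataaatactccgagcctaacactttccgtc
In both, the CArG box ran from base -72 to base -63 before the start. The windows of the other 2 matching starts overlapped the downstream one and held the same box.

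The corepressor promoters differed from each other. The Nab1 window, at chr1:52500449-52500698 on the minus strand, held the Egr site GCGTGGGCG at 2 places, from base -141 to -133 on the opposite strand and from base -109 to -101. A match to the looser form alone ran from base -38 to -30. The exact site occurred in 0.536% of all windows, and 7 windows had more than 1; the looser form occurred in 4.7%. The Nab2 window, at chr10:127666704-127666953 on the minus strand, held none of these letters. A match is a description of the sequence and no match says only that these letters are not in this window.
Nab1: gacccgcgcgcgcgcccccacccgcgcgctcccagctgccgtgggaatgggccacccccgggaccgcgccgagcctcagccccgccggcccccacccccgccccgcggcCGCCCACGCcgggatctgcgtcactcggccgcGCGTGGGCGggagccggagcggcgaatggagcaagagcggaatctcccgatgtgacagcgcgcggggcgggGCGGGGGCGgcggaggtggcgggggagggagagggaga
Nab2: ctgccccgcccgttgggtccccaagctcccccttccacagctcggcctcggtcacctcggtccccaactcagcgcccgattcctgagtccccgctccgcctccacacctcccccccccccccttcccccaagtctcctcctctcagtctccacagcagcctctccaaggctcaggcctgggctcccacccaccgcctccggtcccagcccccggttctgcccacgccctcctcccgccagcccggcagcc

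The arrays were on a common scale: the mean after trimming 2% at each end was between 250.14 and 250.16 on every array. RNA quality was not alike. Among the Gapdh controls the 3' signal exceeded the 5' signal by 1.72 (log2) on Valpha2 array 1, by 0.95 on array 1 of the overnight control and by 0.48 on Vbeta5 array 1; on the remaining 5 arrays this ratio was -0.28 to -0.09. Of 11 markers of double positive thymocytes 10 had a probe set, and all 10 had a signal over 17 on each array. This bar is low, since only 12.2% to 24.7% of an array's signals were below 17, and passing it does not identify the cells. The summed signal of these 10 markers was 18772.6 and 35609.8 on the Vbeta5 arrays and 54510.4 to 70691.6 on the other 6. Summed markers of B cells reached at most 1002 on any array, macrophages and monocytes 961, and dendritic cells and class II genes 784.

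Egr1, Egr2, Nab1 and Nab2 all had their highest signals with Vbeta5. In each of the 4 tested probe sets both Vbeta5 arrays lay above all 6 other arrays, which held for 6.1% of the probe sets tested. The dim Egr1 probe set, which was not tested, had the same order at signals near the offset of 17. Against the overnight control, 3 of the 4 tested probe sets rose and passed the test, those of Egr1, Egr2 and Nab2, where 0.35% of all probe sets tested passed and were higher. The test was limma on log2(signal + 17), two-sided, with Benjamini-Hochberg adjustment over all 8281 probe sets and a threshold of 0.05. All fold changes are on that scale.

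**Figure D1:**
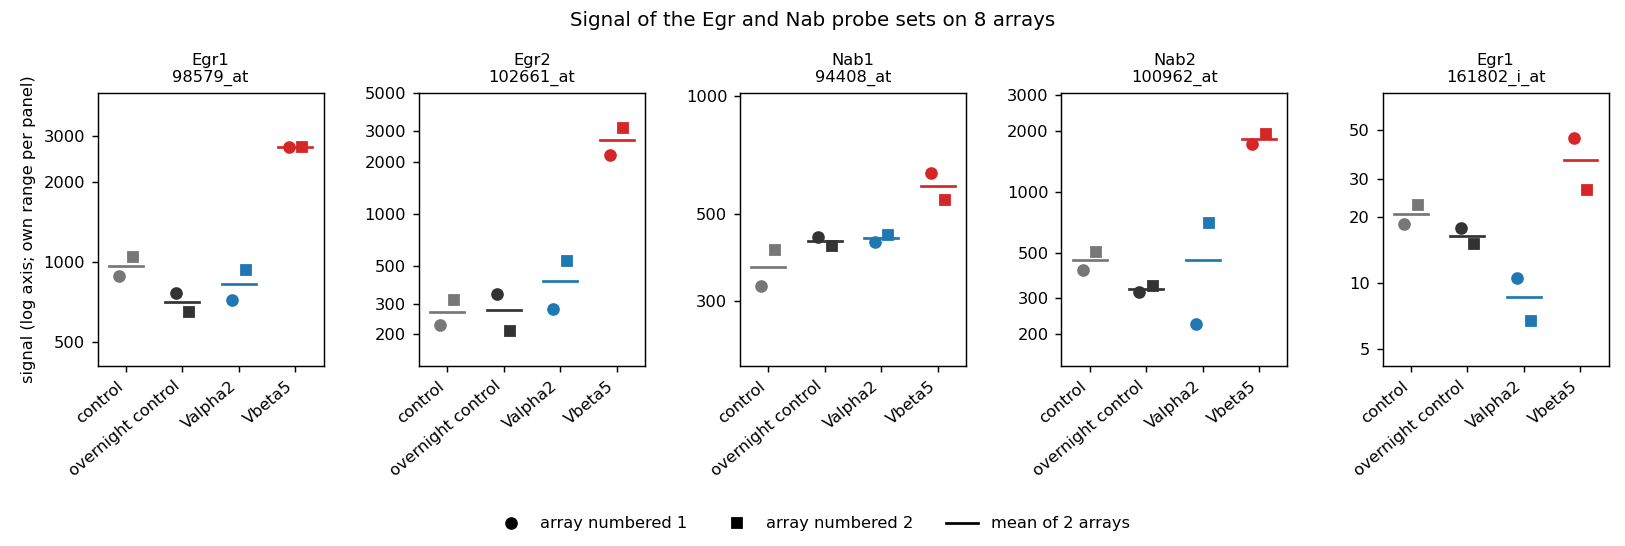
Signal (log axis, with its own range in each panel) of the 5 Egr and Nab probe sets on the 8 arrays, by group; circles are array 1, squares array 2 and the lines the means of 2 arrays. The Vbeta5 arrays are the highest in every panel, from 26.5 and 46.2 in the dim Egr1 probe set to 2200 and 3141 in Egr2.

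Egr2 showed the widest range of the members. Its signal was 226.4 and 314.5 on control arrays 1 and 2, 343.9 and 210.3 on the overnight control arrays, 279.8 and 535.5 on the Valpha2 arrays and 2200 and 3141 on the Vbeta5 arrays. The first 3 groups overlapped, except that Valpha2 array 2 stood above the other 5 of these arrays, and the Vbeta5 arrays stood well apart from all. Egr2 was 9.24-fold higher with Vbeta5 than in the overnight control (log2 difference 3.21 ± 0.36 SE, limma adjusted p = 0.0105). The difference was 2.62 between the arrays numbered 1 and 3.80 between those numbered 2.

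Egr1 was the steadiest on the Vbeta5 arrays. The brighter of its 2 probe sets read 885.9 and 1043 in the control, 765.4 and 647.6 in the overnight control, 720.4 and 934.1 with Valpha2, and 2720 and 2717 with Vbeta5. The Valpha2 arrays overlapped with the control and the overnight control arrays, and the difference between the latter groups did not pass (limma adjusted p = 0.59). With Vbeta5 Egr1 rose 3.79-fold over the overnight control (log2 difference 1.92 ± 0.23 SE, limma adjusted p = 0.0105), by 1.81 between the arrays numbered 1 and 2.04 between those numbered 2. The other Egr1 probe set was dim, with signals of 18.6 and 22.8 in the control, 17.9 and 15 in the overnight control, 10.5 and 6.7 with Valpha2 and 46.2 and 26.5 with Vbeta5. It did not enter the test; its Vbeta5 arrays were also the highest and its Valpha2 arrays the lowest, in a range where the offset of 17 outweighs several of the signals.

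Nab2, the corepressor known as an Egr target, rose with them. It read 413.6 and 509.2 in the control, 323.3 and 344.7 in the overnight control, 223.3 and 704.4 with Valpha2, and 1719 and 1929 with Vbeta5. Both Valpha2 arrays fell outside the range of the other non-Vbeta5 arrays, at opposite ends. Nab2 was 5.24-fold higher with Vbeta5 than in the overnight control (log2 difference 2.39 ± 0.42 SE, limma adjusted p = 0.0326), with 2.35 and 2.43 between the same-numbered arrays.

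Nab1, the other corepressor, did not pass. Its signal was 328.8 and 404 in the control, 437.1 and 415.2 in the overnight control, 425.5 and 441.1 with Valpha2, and 635.4 and 543.7 with Vbeta5. The Vbeta5 arrays were above the rest by a small margin, with a log2 difference from the overnight control of 0.45 ± 0.24 SE (95% interval -0.08 to 0.98, limma adjusted p = 0.7). The difference of Nab2 exceeded that of Nab1 by 1.83 between the arrays numbered 1 and by 2.05 between those numbered 2, while that of Egr2 exceeded that of Egr1 by 0.81 and 1.76. These gaps between genes were not tested.

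The rises of Egr1 and Egr2 no longer passed without Vbeta5 array 2 (limma adjusted p = 0.103 for both) or in limma without the variance trend (0.104 for Egr1 and 0.103 for Egr2). That of Nab2 ended under 8 of the 18 alternatives, with adjusted p from 0.0583 without control array 1 to 0.305 without Vbeta5 array 2; it was 0.059 without control array 2, 0.122 and 0.112 without overnight control arrays 1 and 2, 0.106 without Vbeta5 array 1, 0.0783 at a common median and 0.164 without the trend. Other signals moved with the Vbeta5 group. Summed double positive markers were 35609.8 and 18772.6 there against 67221.3 and 63864.5 in the overnight control. Summed dendritic cell and class II markers were 743.5 and 784.1 against 699.7 and 287.6, macrophage markers 773.9 and 702.1 against 961.1 and 477.4, and B cell markers 471.7 and 535.6 against 1002 and 769.9. The part of other cells in the Egr and Nab signals was not tested, and in bulk RNA more cells that express a gene and more RNA per cell cannot be told apart.

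**Figure D2:**
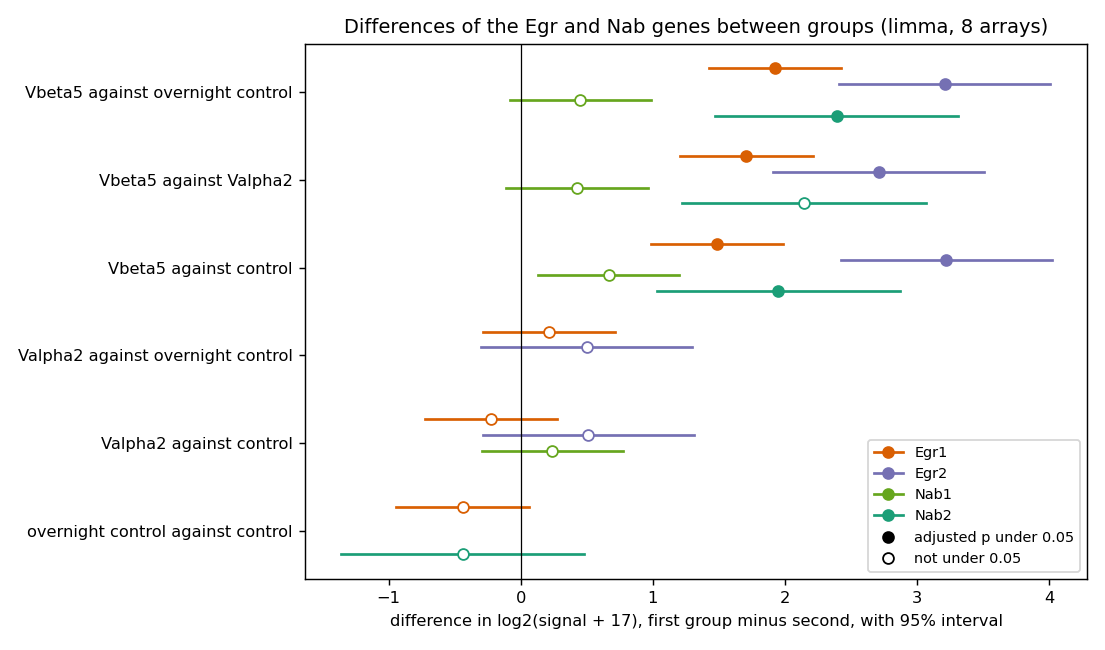
Difference in log2(signal + 17) of the 4 tested Egr and Nab probe sets (x axis) in the 6 comparisons between groups, with the 95% interval of the limma fit; filled points have an adjusted p under 0.05. The filled points lie in the 3 Vbeta5 comparisons, from 1.48 for Egr1 to 3.22 for Egr2, and 5 differences whose sign turned under an alternative are left out.

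With Valpha2 no member passed against the overnight control: 0 of 4, beside 0 of all 8281 probe sets, of which 132 had an unadjusted p under 0.05. That count is below the share of 0.05 that would be reached if no probe set differed. Egr2 differed by 0.50 ± 0.36 SE on the log2 scale (95% interval -0.30 to 1.30) and Egr1 by 0.22 ± 0.23 SE (-0.28 to 0.72), both with a limma adjusted p of 1.00. The 2 pairs of arrays disagreed: Egr2 was lower by -0.28 on array 1 and higher by 1.28 on array 2, and Nab2 by -0.50 and 1.00. Valpha2 array 1, the lower of the pair in the 4 tested probe sets, had the highest 3' to 5' ratio of the series, and the part of RNA quality in these values was not tested. For Nab1 and Nab2 the sign of the fitted Valpha2 difference turned under an alternative setting, so no direction is given for the group difference.

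The log2 difference between the antibodies does not use the mean of the overnight control, which both comparisons above share. Its standard error and adjusted p do depend on the overnight control and control arrays, since the spread was estimated in 1 fit of all groups. Egr1 and Egr2 were higher with Vbeta5 than with Valpha2, 2 of 4 tested members, where 0.0966% of all probe sets passed and were higher. Egr2 differed by 2.71 ± 0.36 SE on the log2 scale (6.53-fold) and Egr1 by 1.71 ± 0.23 SE (3.27-fold), each with a limma adjusted p of 0.0265. Nab2 differed by 2.14 ± 0.42 SE without passing (95% interval 1.22 to 3.06, adjusted p = 0.0767), and the value rested on which Valpha2 array was used: it was 1.35 without array 1 (adjusted p = 0.419) and 2.94 without array 2, where it passed (0.00453). Nab1 differed by 0.43 ± 0.24 SE (-0.11 to 0.96, adjusted p = 0.719). Since clones and doses are not given, the chain engaged and the antibody used cannot be told apart.

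The Egr1 call ended under 9 of the 18 alternatives and the Egr2 call under 7. For both Egr genes they ended without Valpha2 array 1 (adjusted p = 0.302), without Vbeta5 array 2 (0.28 for Egr1, 0.32 for Egr2), and without control array 1 or 2 (0.059 and 0.0539), at a common median (0.106 and 0.0846), without the trend (0.24) and in a fit of the 4 arrays alone (0.0701). The Egr1 call also ended without Vbeta5 array 1 (0.0762) and with the Data 1 arrays of the overnight control and both antibodies left out (0.0504).

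Against the control without the overnight label, the Vbeta5 arrays were higher in the same genes: 3 of 4 passed, where 0.628% of all probe sets passed and were higher. Egr2 was 9.32-fold higher (log2 difference 3.22 ± 0.36 SE, limma adjusted p = 0.00535). Egr1 was 2.80-fold higher (1.48 ± 0.23 SE, adjusted p = 0.0126) and Nab2 3.86-fold (1.95 ± 0.42 SE, adjusted p = 0.0471). Nab1 differed by 0.66 ± 0.24 SE (95% interval 0.13 to 1.20) and did not pass after adjustment (adjusted p = 0.301). The Egr2 call ended without control array 1 or 2 (0.0598 and 0.0638). The Egr1 call ended without either control array (0.159 and 0.115), without either Vbeta5 array (0.0706 and 0.0782), at a common median (0.0622) and without the trend (0.0819), and the Nab2 call under 12 of the 18 alternatives, among them leaving out any 1 of the control, overnight control and Vbeta5 arrays (adjusted p from 0.0559 without overnight control array 2 to 0.368 without control array 1).

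Between the overnight control and the control 0 of 4 members passed, where 0.217% of all probe sets passed in either direction. A count of 0 is near that background and says nothing particular about the members. Egr1 differed by -0.44 ± 0.23 SE (95% interval -0.94 to 0.06, adjusted p = 0.59) and Nab2 by -0.44 ± 0.42 SE (-1.36 to 0.48, adjusted p = 0.75), while Egr2 and Nab1 turned sign under an alternative. Valpha2 against the control likewise had 0 of 4, with 0.399% of all probe sets past the threshold; Egr2 differed by 0.51 ± 0.36 SE, Nab1 by 0.24 ± 0.24 SE and Egr1 by -0.22 ± 0.23 SE, all with an adjusted p of at least 0.848.

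By mean signal Egr1 was ordered Vbeta5 (2718.5), control (965), Valpha2 (827), overnight control (706.5). In Egr2 Vbeta5 (2671) was followed by Valpha2 (408); the overnight control (277) and the control (270.4) were left without an order, since the sign of their difference turned under an alternative. In Nab1 Vbeta5 was highest (590) and Valpha2 (433) lay above the control (366), while the overnight control (426) got no place for the same reason. In Nab2 Vbeta5 was highest (1824) and the control (461) lay above the overnight control (334), and Valpha2 (464), with its arrays far apart, got no place. Vbeta5 against Valpha2 passed in Egr1 and Egr2 and did not pass in Nab1 and Nab2. No difference among the control, overnight control and Valpha2 groups passed in any of the 4 genes.

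Genes on the known route to the Egr promoters were read from a list. This list and those of Egr relatives, NuRD subunits and reported targets below were chosen with earlier results of these data known. Their counts and medians are therefore descriptions and lend no independent support. Of 26 genes of the ERK route, from the Ras activators through the kinases to Elk1, Elk3, Elk4 and serum response factor, 16 were tested. Against the overnight control 0 rose and 0 fell with Vbeta5, where 0.616% of all probe sets passed in either direction, so that a count of 0 is near the background and says nothing particular about the list. The median log2 difference was 0.01, beside -0.01 over all probe sets tested. These values are of RNA and do not measure kinase activity. Of the Egr relatives Egr3, Egr4 and Wt1, Wt1 was tested, at dim signals of 20.2 to 79.4, and did not pass in any comparison. Of 13 subunits of NuRD, the chromatin complex through which Nab2 is known to repress, 9 were tested and 0 passed with Vbeta5 against the overnight control, again near the background of 0.616%, with a median of 0.24. The highest were the deacetylase gene Hdac1, with a log2 difference of 1.17 ± 0.34 SE, and the histone-binding gene Rbbp7, with 0.91 ± 0.26 SE (limma adjusted p = 0.242 and 0.241). They are named after their values were seen. Against the control, Vbeta5 differed by 0.72 ± 0.34 SE in Hdac1 and -0.10 ± 0.26 SE in Rbbp7. The NuRD median against the control was -0.10 with Vbeta5 and -0.44 in the overnight control.

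Of 34 reported Egr targets 18 were tested: with Vbeta5 against the overnight control 1 rose, 0 fell and 17 did not pass, where 0.35% of all probe sets passed and were higher, and the median log2 difference was 0.21. Among those that did not pass, the values ran from -1.97 in Socs3 (adjusted p = 0.288) to 2.17 in Nrgn (0.188), both named after their values were seen. The gene that rose was Cd5, a negative regulator of receptor signalling, at 4762 and 5332 with Vbeta5 against 684.9 and 1327 in the overnight control and 2652 and 2803 in the control. Its log2 difference from the overnight control was 2.38 ± 0.41 SE (limma adjusted p = 0.03), and the call ended under 7 of 18 alternatives. Both overnight control arrays were below both control arrays in Cd5, an order whose share over all probe sets is not given here. With Vbeta5 the gene did not pass against the control.

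Against the control 2 targets rose with Vbeta5, 0 fell and 16 did not pass, where 0.628% of all probe sets passed and were higher; the median was 0.31 beside 0.08 over all probe sets. Id3, an inhibitor of E proteins that Egr factors are known to induce on the way to positive selection, read 1135 and 1126 in the control, 1839 and 1429 in the overnight control, 1470 and 1973 with Valpha2, and 2728 and 2882 with Vbeta5. Its log2 difference from the control was 1.30 ± 0.23 SE (limma adjusted p = 0.0196). All overnight control, Valpha2 and Vbeta5 arrays were above both control arrays, with the Vbeta5 arrays highest. Ndrg1, a gene induced by stress and differentiation, read 211.7 and 253.2 in the control, 469.9 and 377 in the overnight control, 303.1 and 495.3 with Valpha2 and 803.7 and 580.6 with Vbeta5. Its Vbeta5 arrays differed from the control by 1.49 ± 0.31 SE on the log2 scale (limma adjusted p = 0.0379). All arrays of the other 3 groups were above both control arrays, as in Id3. The share of all probe sets with this order is not given here. Against the overnight control Vbeta5 did not pass in Ndrg1 (0.68 ± 0.31 SE, limma adjusted p = 0.591) or in Id3 (0.78 ± 0.23 SE, 0.245). Both calls ended under 6 of 18 alternatives, among them leaving out any 1 of the 4 arrays compared. With Valpha2 0 of the 18 targets passed against either control. Of all 8281 probe sets 0 passed against the overnight control and 0.399% against the control. These counts of 0 are near the background and say nothing particular about the list.

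**Figure D3:**
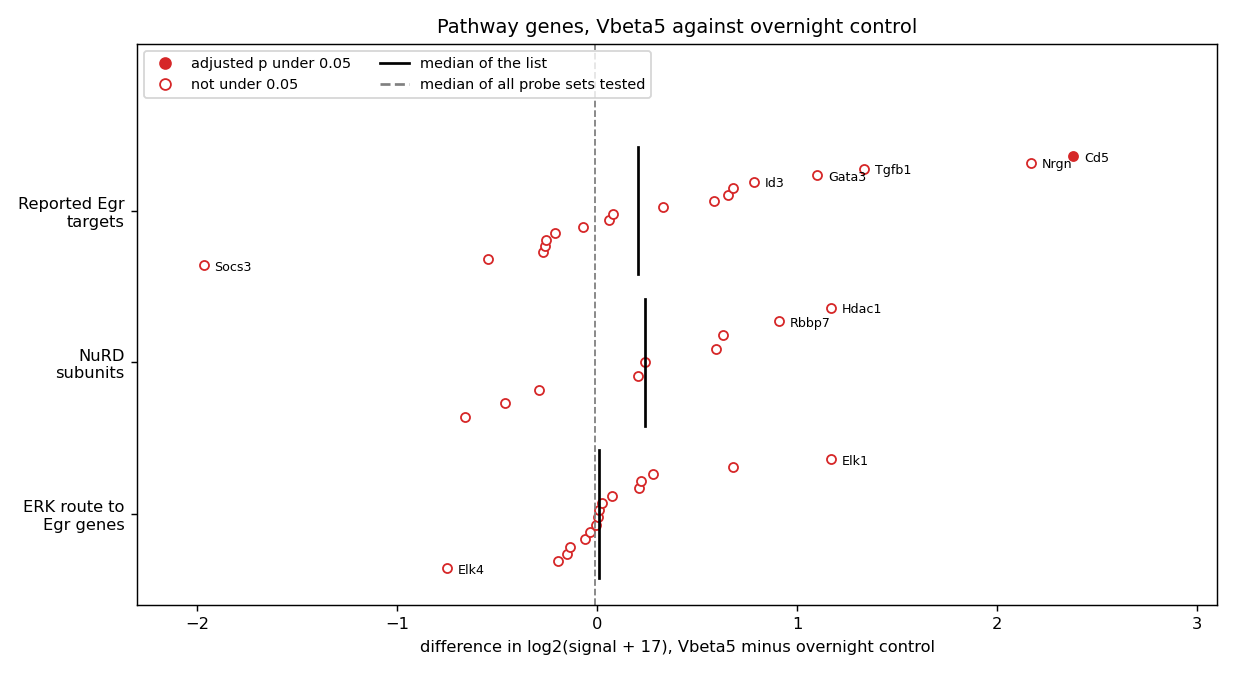
Difference in log2(signal + 17) between Vbeta5 and the overnight control (x axis) for each tested gene of 3 lists: the ERK route, NuRD subunits and reported Egr targets; filled points have an adjusted p under 0.05. Cd5 at 2.38 is the filled point, and the list medians (black lines) are 0.01, 0.24 and 0.21, beside -0.01 over all probe sets tested (dashed).

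The profiles most like those of Egr1 and Egr2 over the 8 arrays were ranked by the root mean square difference between log2 profiles, each centred on its own mean, as a description with no test. Nearest to Egr1, whose own profile had a spread of 0.76, were Cnn2 (0.18), an actin-binding calponin, the dim probe set of Scgb1a1 (0.21), the actin-bundling gene Lcp1 (0.24) and the MAP kinase phosphatase gene Dusp2 (0.25). Nab2 stood at place 29 (0.37), Nab1 at 299 (0.58) and Egr2 at 885 (0.67). Nearest to Egr2, with a spread of 1.37, were the calcium-dependent factor gene Nfatc1 (0.41), Basp1 (0.44), the tetraspanin gene Cd53 (0.45) and the guanylate-binding protein gene Gbp3 (0.52). Here Nab2 stood at place 6 (0.53), Egr1 at 17 (0.67) and Nab1 at 417 (1.15). The measure weighs the size of a change as well as its shape, and Egr1 had the smaller range. The part of size and of shape in the differing neighbours was not tested.

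These neighbours were chosen by likeness over the same 8 arrays, so patterns they share with Egr1 or Egr2 follow in part from the choice. All 8 neighbours, like Egr1 and Egr2, were lower on Valpha2 array 1 than on array 2. Nfatc1 read 178.6 and 683.3 with Valpha2 and 2635 and 2543 with Vbeta5, where Egr2 read 279.8 and 535.5, and 2200 and 3141. Dusp2, which dampens ERK, read 598.3 and 1092 with Valpha2 and 2302 and 2196 with Vbeta5, against 708.4 to 800.2 in the control and overnight control. Scgb1a1 is known from airway epithelium; its probe set had signals of 13 to 49.9 outside Vbeta5, near the offset.

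**Figure D4:**
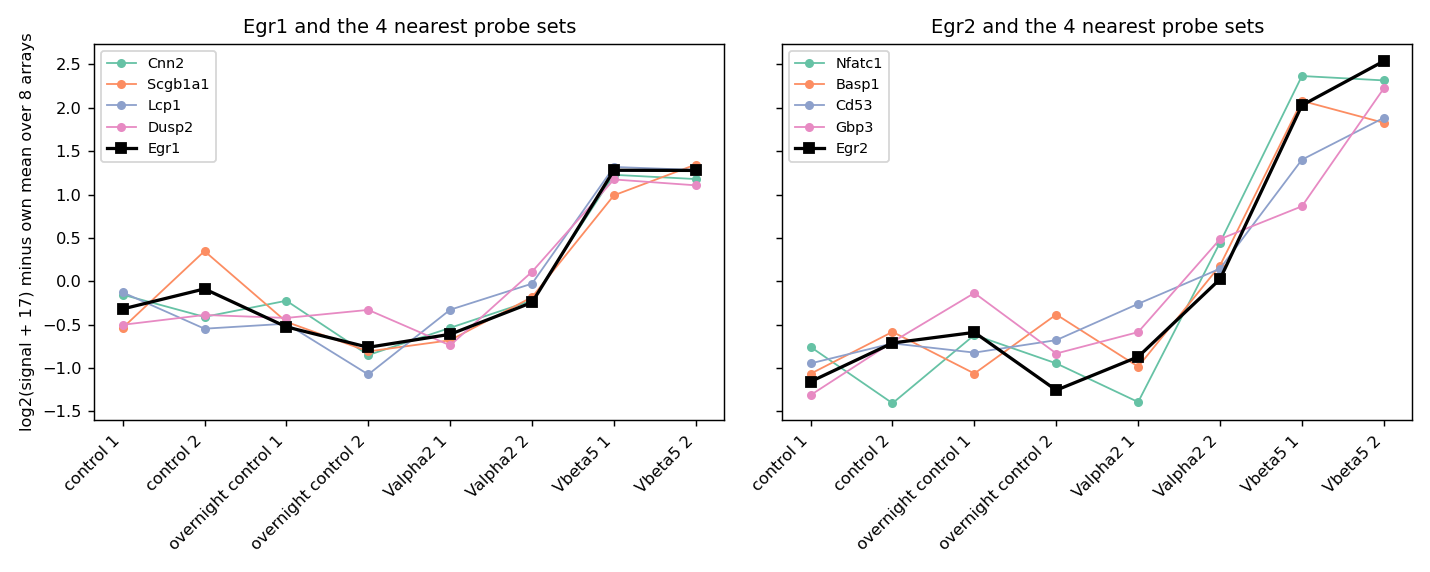
Profiles over the 8 arrays of Egr1 (left) and Egr2 (right) in black with the 4 nearest probe sets in colour, as log2(signal + 17) minus each probe set's own mean; the lines join arrays only to guide the eye. All profiles are highest on the Vbeta5 arrays, and all are lower on Valpha2 array 1 than on array 2. The coloured profiles were chosen by likeness over these same arrays.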

How the data were processed

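Total RNA of 8 thymocyte samples was measured on arrays with 12488 probe sets. The authors deposited 1 intensity per probe set and array, normalized per the labels; the sources used here do not name software, scaling target or detection calls. The values are linear, with 1 decimal and none below 0. Control probe sets (66) were left out. As offset, 17 was added to each signal, which is percentile 20 of all positive values; 12.2% to 24.7% of an array's signals were lower. The dimmest 33.3% of probe sets by mean over all arrays were left out. Symbols came from the platform annotation, updated by gene identifier with RefSeq names: 10833 probe sets had 1 symbol (10817 found in RefSeq), 396 several and 1193 none.

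limma 3.58.1 in R 4.3.3 fitted 1 mean per group over the 8 arrays, with eBayes and a trend of the variance (degrees of freedom 4 residual, 6.44 prior). Each of the 6 comparisons was adjusted over its 8281 probe sets; the median standard error was 0.378 on the log2 scale. List genes were each read from their brightest tested probe set. Named were all member probe sets, list members that passed, and the 4 profiles nearest to Egr1 and to Egr2. A member difference that did not pass and turned sign under an alternative got no direction, which held for 5 of 24. The script was tested on simulated data. Members, lists and alternatives were chosen with earlier results of these data known. Alternatives tried were a common median, quantile normalization, a floor, an offset of 8.5, no filter, a 50% filter, no trend, a block for the array number, the 4 arrays compared alone, each array left out, and the 3 arrays numbered 1 other than control left out. For the gene lists and the profiles they were added after seeing the data. The number of arrays limits the precision.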

Additional observations from a re-analysis of the deposited data

Results flagged for a closer look

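The effects of the 2 antibodies, each taken against the overnight control, differed in the Egr genes. This difference of effects is the same quantity as the Vbeta5 against Valpha2 comparison above and adds no further evidence. By limma it was 1.71 on the log2 scale in Egr1 and 2.71 in Egr2 (adjusted p = 0.0265 for each). The call ended under 9 of the 18 alternatives in Egr1 and under 7 in Egr2. Both Vbeta5 arrays lay above all 6 others in these genes, as in 6.1% of the probe sets tested.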

How the results depend on the processing

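The direction of every fitted group difference given for Egr1, Egr2, Nab1 and Nab2 held under all 18 alternatives, since those that turned were not given. This does not cover the differences between single same-numbered arrays. Calls moved more than sizes. The log2 difference of Vbeta5 from the overnight control ranged from 1.81 to 2.04 in Egr1, from 2.87 to 3.80 in Egr2 and from 2.31 to 2.47 in Nab2. Of the 4 tested members, 3 passed in that comparison, 2 for Vbeta5 against Valpha2 and 3 for Vbeta5 against control. These counts became 0, 0 and 1 in limma without the trend, and ranged from 0 to 3, 0 to 3 and 0 to 3 when 1 array was left out. At a common median, 0 passed for Vbeta5 against Valpha2 and 1 for Vbeta5 against control; in a fit of the 4 arrays alone 0 passed for Vbeta5 against Valpha2, and 1 with the 3 arrays numbered 1 other than control left out. The other 3 comparisons had 0 members past the threshold under every alternative. A common median moved the median of all probe sets by -0.23 for the overnight control, -0.20 for Vbeta5 and -0.14 for Valpha2, each against the control.

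Counts over all probe sets moved by over 1.5 times as well. For Vbeta5 against the overnight control the count of 51 was 29 at a common median and in a fit of 4 arrays, 0 without the trend, and 170 without the 3 arrays. For Vbeta5 against Valpha2 the count of 23 was 0 at a common median, without the trend and in a fit of 4 arrays, and 52 without the 3 arrays. For Vbeta5 against control the count of 136 was 22 without the trend, 215 in a fit of 4 arrays and 329 without the 3 arrays. The count of 18 for the overnight control against control was 10 under quantile normalization and at a common median, 0 without the trend, 35 in a fit of 4 arrays and 84 without the 3 arrays. The count of 33 for Valpha2 against control was 19 under quantile normalization, 11 at a common median, 10 with no filter, 0 without the trend, 56 in a fit of 4 arrays and 65 without the 3 arrays. For Valpha2 against the overnight control 1 probe set passed without Valpha2 array 2. With 1 array left out, the first 5 of these counts ranged from 0 to 54, 31, 186, 123 and 52 in the order given.

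The array numbers are shared between groups, but no label says that they pair the samples. Deviations of same-numbered arrays correlated across probe sets at r = 0.10 to 0.35 over the pairs of groups. With the number as a block, the counts were 125, 90 and 242 for Vbeta5 against the overnight control, Valpha2 and control, 107 for the overnight control and 90 for Valpha2, both against control, and 0 in the remaining comparison. Nab2 then passed for Vbeta5 against Valpha2 (2.14, adjusted p = 0.0126), and no other member call changed. The nearest 4 profiles were the same under a common median and an offset of 8.5, and under quantile normalization 3 of 4 for Egr1 and 4 of 4 for Egr2.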
